A study of Mus musculus with 3 samples.

Results

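The miR-322, miR-503, miR-351, miR-542 and miR-450a cluster is a group of microRNA (miRNA) hairpins lying close together on the mouse X chromosome. It was followed here in small RNA libraries of the postnatal heart. Its 6 mature miRNAs were picked by their miRBase accession numbers, out of 1914 accessions in the count table, with their decline in these data already known. The miRNAs with their accessions were miR-322-5p (MIMAT0000548), miR-322-3p (MIMAT0000549), miR-503-5p (MIMAT0003188), miR-351-5p (MIMAT0000609), miR-542-3p (MIMAT0003172) and miR-450a-5p (MIMAT0001546). The libraries came from hearts of untreated wild type C57BL/6 mice at postnatal day 1, 7 or 28 (P1, P7 and P28), with 1 library at each age. The labels call the tissue heart and the study names the cardiac ventricles, and neither gives the sex of the mice behind each library or how many hearts went into it. The study used mice of both sexes in general. All values below are therefore descriptions of 3 libraries, with no replicate check and no p-value.

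A miRNA is cut from a hairpin precursor, and either strand of the hairpin stem, called the 5p or the 3p arm, can be loaded into the silencing complex. The bases near the 5′ end of the mature strand, called the seed, pair with sites in messenger RNAs and lower their output. Hairpins of a cluster are often cut from a shared primary transcript. In rodents miR-322 is the counterpart of human miR-424. Together with miR-503 it is counted in the wider miR-15/16 family, whose known targets include cyclins and other drivers of the cell cycle. The first postnatal weeks are the period in which mouse cardiomyocytes leave the cell cycle.

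The mature sequences are shown because they define which members could act on shared targets. They were taken from RefSeq (GRCm38.p6, the assembly that mm10 denotes), where all 6 names were found. Capitals mark the seed, bases 2 to 8 counted from the 5′ end.
miR-322-5p: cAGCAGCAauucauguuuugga
miR-503-5p: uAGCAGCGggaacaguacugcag
miR-351-5p: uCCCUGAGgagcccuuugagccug
miR-322-3p: aAACAUGAagcgcugcaacac
miR-542-3p: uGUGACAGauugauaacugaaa
miR-450a-5p: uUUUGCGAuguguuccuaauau

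The cluster held 6 different seeds, so no pair of members shared all of bases 2 to 8. miR-322-5p and miR-503-5p came nearest. Within bases 2 to 8 they differed only by A8G, with the base of miR-322-5p given first and positions counted from the 5′ end. Over the 22 positions compared, they were identical at 11. The seed of miR-322-5p was shared with 9 other mouse miRNA names of the reference, among them members of the miR-15/16 family. Some of these names are shown for comparison with miR-322-5p, with which they share bases 2 to 8. Those not shown were miR-195b, miR-6342, miR-6353 and miR-6419.
miR-15a-5p: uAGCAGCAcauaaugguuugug
miR-15b-5p: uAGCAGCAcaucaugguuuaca
miR-16-5p: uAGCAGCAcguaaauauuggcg
miR-195a-5p: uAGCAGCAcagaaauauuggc
miR-497a-5p: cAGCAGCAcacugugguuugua

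The seed of miR-351-5p was shared with 4 other names. They included both miR-125 miRNAs, which are shown because miR-351-5p is thereby placed in their seed group.
miR-125a-5p: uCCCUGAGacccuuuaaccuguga
miR-125b-5p: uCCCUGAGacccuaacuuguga
From the 5′ end, miR-351-5p matched miR-125b-5p at 10 of 22 positions. miR-322-3p, miR-503-5p, miR-542-3p and miR-450a-5p shared their seeds with 0 of the other names. Over bases 2 to 7 alone, miR-503-5p matched 10 other names and miR-322-3p matched 2, while miR-542-3p and miR-450a-5p matched 0. The count table lists accessions only, and no table used here pairs the accessions of these relatives, or of the remaining arms of the hairpins, with names. Their levels were not analysed here.

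All hairpins lay on the minus strand of chromosome X in RefSeq (GRCm38.p6), so transcription runs from miR-322 towards miR-450b. The hairpin of miR-322 spans chrX:53054255-53054349, that of miR-503 chrX:53053984-53054054 and that of miR-351 chrX:53053255-53053353. These 3 of the 7 hairpins lie inside the long noncoding RNA gene C430049B03Rik as RefSeq draws it (chrX:53053112-53057190). In GENCODE M21 that gene ends before them (chrX:53055046-53057190). The hairpin of miR-542 (chrX:53049403-53049487) follows after a gap of 3767 nt. Behind it stand the pair that both give miR-450a-5p, Mir450-2 (chrX:53048299-53048367) and Mir450-1 (chrX:53048154-53048244), and then Mir450b (chrX:53047997-53048078). The whole run covers 6353 nt.

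**Figure D1:**
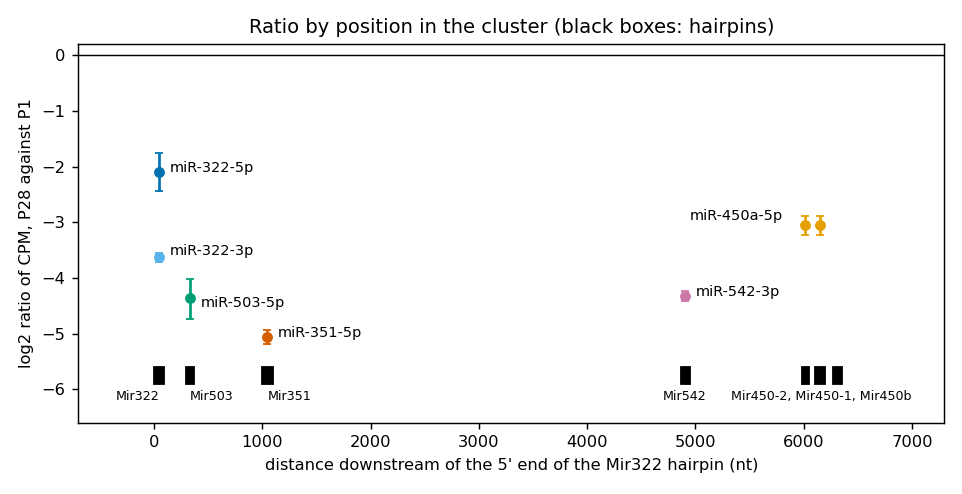
Log2 ratio of CPM (reads scaled to a library of 1000000) in the P28 against the P1 library for each mature miRNA (vertical axis), placed at its hairpin by distance from the 5′ end of the miR-322 hairpin in nt (horizontal axis). Black boxes are the 7 hairpins, bars are 95% intervals for counting error, and miR-450a-5p is drawn at both of its hairpins; the values run from -5.05 for miR-351-5p to -2.09 for miR-322-5p, which lie within the first 3 hairpins.

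In order of age, the counts of the libraries summed to 1944237, 2465680 and 2842526 reads, and 3 reads corresponded to between 1.06 and 1.54 CPM. These totals include stem-loop precursors and 12 pairs of mature rows with nearly the same counts, so some reads may be counted more than once. Levels are counts per 1000000 reads of the library (CPM) with 95% Wilson intervals. These intervals cover counting error only, since hearts were not replicated and no molecular identifiers are stated. A mature miRNA is read about whole, and CPM is not scaled by length. How well each miRNA was captured into the libraries was not measured, so that comparisons of levels between different miRNAs are comparisons of reads. The ratios below compare CPM on the log2 scale after adding 0.5 reads, with 95% Clopper-Pearson intervals. A difference of at least 2-fold was counted. In all, 291 accessions averaging 10 CPM or more over the 3 libraries were compared, and all 6 members passed this filter. Stem-loop precursors and repeated rows are among the 291. With mature rows only 279 accessions remained, and with repeated rows left out 280 did.

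Together, the 6 members were lower at each step. They took 45044 reads at P1, which was 2.32% of the counts summed for the library (95% Wilson interval 2.30 to 2.34). At P7 they took 23262 reads or 0.943% (0.931 to 0.956), and at P28 3736 reads or 0.131% (0.127 to 0.136). The summed level was thus 2.46-fold lower at P7 than at P1 (log2 ratio -1.30, 95% Clopper-Pearson interval -1.32 to -1.27). It was 17.6-fold lower at P28 than at P1 (log2 ratio -4.14, -4.19 to -4.09). The size of this difference depended on the scaling, and the log2 ratio was -3.51 with TMM factors and -3.45 with DESeq2 size factors, which centre the typical accession near no change. By library totals, mature accessions averaging 10 CPM or more were compared between P28 and P1. Of the CPM lost by those that were lower at P28, the members made up 21.4%. They had held 2.48% of all mature reads at P1, a share that also takes in accessions that did not fall. Because the members were chosen for their decline, a large part in the loss was to be found and is no independent support. In heart tissue, fewer cells that make these miRNAs and less of them per cell cannot be told apart.

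The number of members at least 2-fold lower is to be read against the background of all accessions, and it is no independent support, since the members were chosen for their decline. At P7 against P1, 4 of 6 members were at least 2-fold lower, and 11.7% of the 291 accessions were. Without the 10 most abundant accessions in the library totals, only miR-503-5p and miR-351-5p remained past this mark, as miR-322-3p then stood at -0.88 and miR-542-3p at -0.97. With these totals, 8.6% of the 291 accessions were past it. By library totals, it was 6 of 6 members at P28 against P7, against a background of 41.2%. At P28 against P1, it was 6 of 6 members against 41.6%. No member was at least 2-fold higher in a comparison, where 10.7%, 2.75% and 13.1% of accessions were. The median log2 ratio was -1.05 over the members and 0.015 over all accessions compared at P7 against P1. At P28 against P7 these medians were -2.72 and -0.75, and at P28 against P1 they were -3.98 and -0.73.

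The displaced median at P28 depended on the scaling. With TMM factors in place of library totals, the median of all accessions moved by 0.63 at P28 against P1 and by 0.59 at P28 against P7. By library totals, 76.1% of the accessions differing at least 2-fold between P28 and P1 were lower at P28, as compared to 53.3% with TMM factors. For P28 against P7 these shares were 93.8% and 67.7%. For P7 against P1 the share was 52.3%, and 36.8% when the 10 most abundant accessions were left out of the totals. Relative to the median accession, a quantity that moves little with scaling, the members at P28 against P1 lay between -4.33 for miR-351-5p and -1.36 for miR-322-5p. Library totals, TMM factors, DESeq2 size factors and totals without the 10 most abundant accessions were set side by side. Over these 4 scalings, the log2 ratio of miR-351-5p at P28 against P1 ranged from -5.05 to -4.36. That of miR-322-5p ranged from -2.09 to -1.40. With mature rows only, the ratios were -5.09 for miR-351-5p and -2.13 for miR-322-5p. Both thus stayed more than 2-fold lower.

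**Figure D2:**
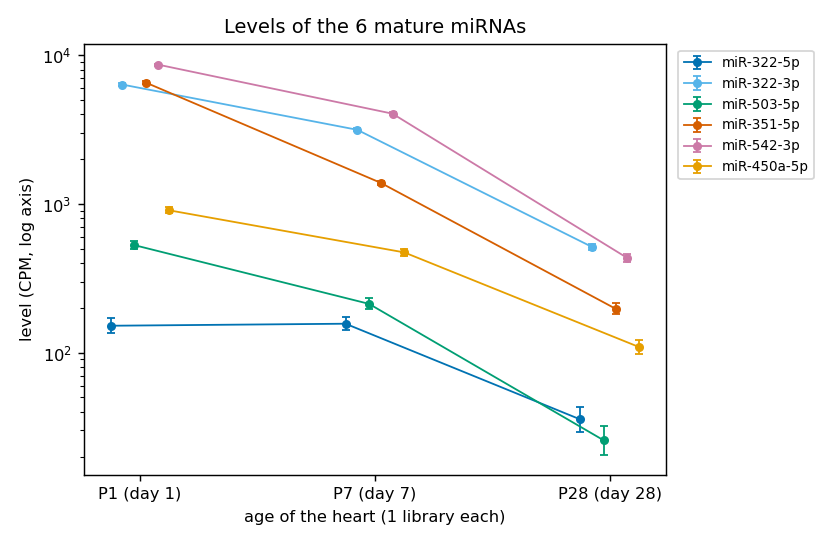
Level of each mature miRNA in CPM (log axis) in the P1, P7 and P28 libraries, 1 library per age. Bars are 95% Wilson intervals for counting error, many of them smaller than the point; 5 of the 6 lines fall at both steps, and the line of miR-322-5p is level from 152 CPM at P1 to 157 CPM at P7 before it drops.

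The miR-322 hairpin gave both arms, and its 3p arm was by far the more abundant. miR-322-3p was at 6357 CPM in the P1 library (12359 reads, 95% Wilson interval 6246 to 6469), 3155 CPM in the P7 library (7778 reads, 3085 to 3225) and 514 CPM in the P28 library (1460 reads, 488 to 541). miR-322-5p, the arm with the miR-15/16 seed, was at 152 CPM in the P1 library (295 reads, 135 to 170), 157 CPM in the P7 library (386 reads, 142 to 173) and 35.5 CPM in the P28 library (101 reads, 29.2 to 43.2). The intervals of miR-322-5p at P1 and P7 overlapped, and those of miR-322-3p did not overlap between any ages.

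The arms of this hairpin therefore did not keep a constant proportion. The 3p arm made up 97.7% (97.4 to 97.9) of the miR-322 reads at P1, 95.3% (94.8 to 95.7) of those at P7 and 93.5% (92.2 to 94.6) of those at P28. For each read of the 5p arm there were 41.9 reads of the 3p arm at P1, then 20.2 and 14.5 at the later ages. At P7 against P1, the log2 ratio was 0.04 for the 5p arm (95% Clopper-Pearson interval -0.18 to 0.27) and -1.01 for the 3p arm (-1.05 to -0.97). The gap between these ratios was 1.06 (95% Woolf interval 0.83 to 1.28), and at P28 against P7 it was 0.48 (0.15 to 0.81). These gaps compare reads within each library, and library scaling does not move them. The 5p arm rests on far fewer reads, and whether hearts of one age differ in this proportion could not be measured with 1 library per age.

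miR-503-5p, the other member near the miR-15/16 family, was of low abundance. It was at 529 CPM in the P1 library (1029 reads, 498 to 563), 213 CPM in the P7 library (525 reads, 195 to 232) and 25.7 CPM in the P28 library (73 reads, 20.4 to 32.3). Its intervals did not overlap between ages, and at P28 its interval overlapped that of miR-322-5p. Its log2 ratio was -1.31 at P7 against P1 (-1.47 to -1.16) and -4.36 at P28 against P1 (-4.73 to -4.02). Although its hairpin lies 200 nt behind that of miR-322, its log2 ratio between the P28 and P1 libraries was below that of miR-322-5p by 2.27 (1.80 to 2.74) and than that of miR-322-3p by 0.74 (0.38 to 1.09).

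miR-351-5p, which carries the miR-125 seed, showed the largest difference of the cluster. It stood at 6554 CPM in the P1 library (12742 reads, 6441 to 6668), 1387 CPM in the P7 library (3421 reads, 1342 to 1435) and 197 CPM in the P28 library (561 reads, 182 to 214). At P7 against P1, 0 of the 291 accessions had a lower ratio than its -2.24. At P28 against P1, 3 accessions did. At P1 its level was near that of miR-322-3p, and at P7 it was below it by more than both intervals. By library totals, 44.3% of its log2 difference between P1 and P28 was already present at P7. This share was between 25.4% and 30.8% for miR-322-3p, miR-503-5p, miR-542-3p and miR-450a-5p. The shares depend on the scaling and carry no interval. With DESeq2 size factors, the log2 ratio of miR-351-5p was -2.26 at P7 and -4.36 at P28, each against P1. By library totals miR-351-5p stood at -2.24 and -5.05. At P28 against P7, its log2 ratio of -2.81 (-2.95 to -2.68) lay between those of the other members.

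miR-542-3p, for which the inhibitor of apoptosis survivin is a known target, had the most reads of the cluster at P1 and P7. It was at 8670 CPM in the P1 library (16857 reads, 8541 to 8802), 4050 CPM in the P7 library (9987 reads, 3972 to 4130) and 433 CPM in the P28 library (1231 reads, 410 to 458). Among mature accessions ordered by CPM, its place went from 15 at P1 to 26 at P7 and 68 at P28. Its log2 ratio was -1.10 at P7 against P1 (-1.13 to -1.06) and -3.23 at P28 against P7 (-3.31 to -3.14), the lowest of the members at that step. At P28 miR-322-3p, at 514 CPM, was above it, with intervals that did not overlap, the reverse of their order at P1 and P7.

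miR-450a-5p, at the far end of the cluster, was reduced less than its neighbour miR-542-3p. Its level was 906 CPM in the P1 library (1762 reads, 865 to 950), 472 CPM in the P7 library (1165 reads, 446 to 500) and 109 CPM in the P28 library (310 reads, 97.6 to 122). The log2 ratio at P7 against P1 was -0.94 (-1.05 to -0.83), just short of the 2-fold mark, while miR-322-3p at -1.01 was just past it. At P28 against P1 it was -3.05 (-3.23 to -2.88), and the log2 ratio of miR-542-3p minus that of miR-450a-5p was -1.27 (95% Woolf interval -1.46 to -1.08). Because its sequence comes from 2 hairpins, the table lists it in 2 rows. The first row held 51.2% (48.9 to 53.6), 49.7% (46.8 to 52.6) and 50.3% (44.8 to 55.9) of its reads in order of age. Each of these intervals held an even split, and the table does not say how reads fitting both hairpins were assigned, so the output of either hairpin cannot be told.

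**Figure D3:**
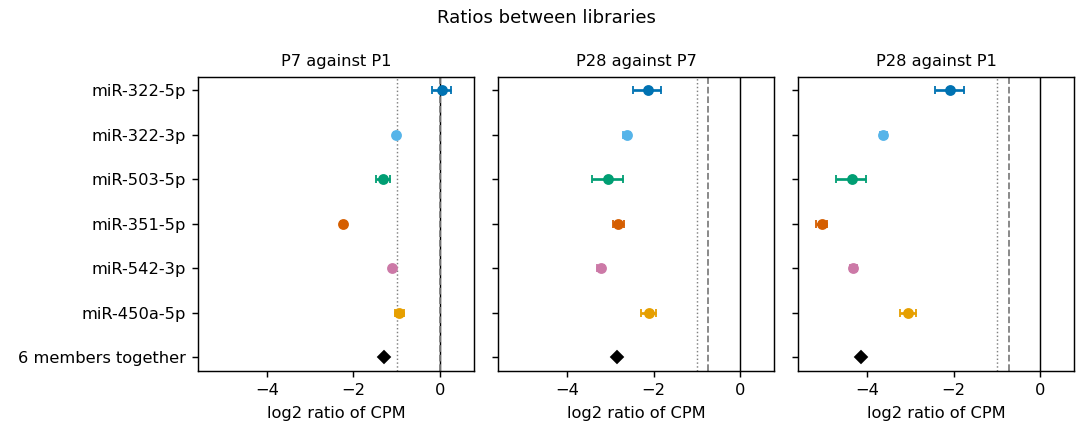
Log2 ratio of CPM for each mature miRNA and for the 6 members together (diamond) in the comparisons P7 against P1, P28 against P7 and P28 against P1, with 95% Clopper-Pearson intervals as bars. The solid line marks no difference, the dotted line 2-fold lower and the dashed line the median of the 291 accessions (0.015, -0.75 and -0.73); at P7 against P1 miR-322-5p lies at the median and miR-351-5p farthest from it at -2.24.

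Members were set against each other in 15 pairs at each comparison, by the reads of both in both libraries. The 95% Woolf interval of the difference between their log2 ratios left out 0 in 14 pairs at P7 against P1, in 12 at P28 against P7 and in 14 at P28 against P1. These intervals cover counting error only, with no spread between hearts, and the pairs are not independent, since each member enters several. At P28 against P1 the exception was miR-503-5p with miR-542-3p, at -0.04 (-0.39 to 0.31). At P7 against P1 it was miR-322-3p with miR-450a-5p, at -0.07 (-0.19 to 0.04). The exceptions at P28 against P7 were miR-322-5p with miR-450a-5p, at -0.02 (-0.39 to 0.34), miR-503-5p with miR-351-5p, at -0.24 (-0.61 to 0.14), and miR-503-5p with miR-542-3p, at 0.17 (-0.19 to 0.54). Ordered by the size of the difference between P1 and P28, miR-351-5p was followed by miR-503-5p and miR-542-3p, which were not separated, and then by miR-322-3p, miR-450a-5p and miR-322-5p. This order did not run along the chromosome, as the largest and the smallest difference both arose within the first 3 hairpins.

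The make-up of the cluster reads changed accordingly. The share of miR-351-5p was 28.3% (27.9 to 28.7) of the cluster reads in the P1 library, 14.7% (14.3 to 15.2) in the P7 library and 15.0% (13.9 to 16.2) in the P28 library. That of miR-322-3p was 27.4% (27.0 to 27.9), 33.4% (32.8 to 34.0) and 39.1% (37.5 to 40.7). miR-542-3p held 37.4% (37.0 to 37.9), 42.9% (42.3 to 43.6) and 32.9% (31.5 to 34.5). The less abundant miR-450a-5p went from 3.91% (3.74 to 4.09) to 5.01% (4.74 to 5.30) and 8.30% (7.46 to 9.23), and miR-322-5p from 0.655% (0.585 to 0.734) to 1.66% (1.503 to 1.83) and 2.70% (2.23 to 3.27). miR-503-5p stayed between 1.95% and 2.28%, with overlapping intervals. Shares of this kind are tied to each other, since they sum to the whole in every library.

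**Figure D4:**
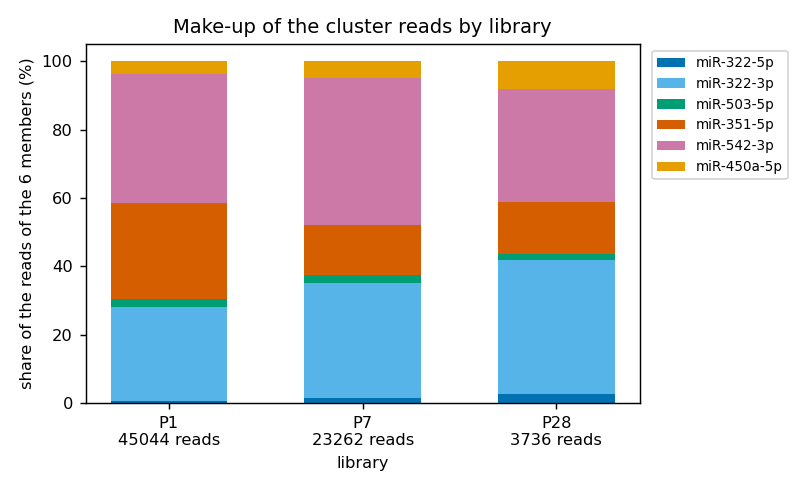
Share of the reads of the 6 members (vertical axis, %) held by each mature miRNA in the P1, P7 and P28 libraries, with the number of cluster reads under each bar. The part of miR-351-5p is 28.3% at P1 and near 15% at the later ages, and that of miR-322-3p grows from 27.4% to 39.1%.

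The plot of ratio against abundance places the members in the whole table. miR-351-5p, with 1.03% of all accessions compared having a lower ratio at P28 against P1, lay near the lower edge. For miR-322-5p this share was 19.9%, and for the other members it was between 2.41% and 8.93%. These places are descriptions, since the members were chosen for their decline.

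**Figure D5:**
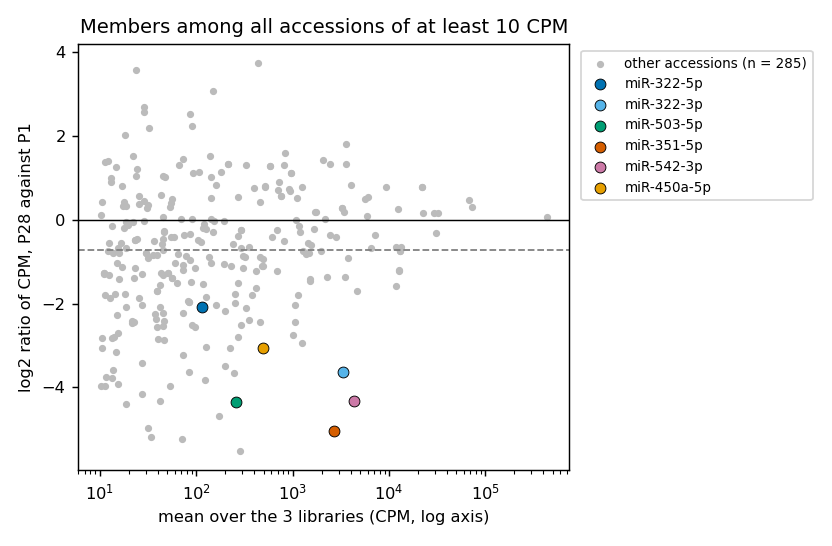
Log2 ratio of CPM at P28 against P1 (vertical axis) by mean CPM over the 3 libraries (log axis) for the 291 accessions averaging 10 CPM or more. Grey points are the 285 other accessions and coloured points the members; the dashed line is the median at -0.73, and the members lie below it, from -5.05 for miR-351-5p to -2.09 for miR-322-5p. The mean of a member rests mostly on its high level at P1 and P7.

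The accessions most like the cluster were sought among 128 others averaging 100 CPM or more, by the distance between their pair of log2 ratios (P7 against P1 and P28 against P7) and that of the summed members. The nearest 5 lay at distances of 0.44 to 1.07 on the log2 scale, while the members themselves lay at 0.20 to 1.52. The members make up the sum they were measured against, so their distances are not on a par with those of the other accessions. Accessions averaging less than 100 CPM were left out of the search, and some of them lay nearer than any of these 5. Of the 128, the nearest was MIMAT0004939, whose levels in order of age were 494, 207 and 39.0 CPM. It was followed by MIMAT0000904, whose levels were 391, 110 and 15.1 CPM. These accessions carry no names in the table, and likeness over 3 libraries says nothing of where they are encoded.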

How the data were processed

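Small RNA libraries (NEBNext kit) from wild type mouse hearts at P1, P7 and P28 were analysed, 1 per age. The deposited table holds raw read counts per miRBase accession, made by the authors without normalization. Their processing notes name bcl2fastq, TopHat and mm10, and the study states TopHat2 and counting with Bioconductor packages for its sequencing in general. The miRBase release, the strand setting and the handling of reads with several matches are not given in the sources used here. Such reads could move counts between rows of one sequence.

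Columns were matched to ages by their age code. The 2049 rows, 14 of them stem-loop precursors, were summed to 1914 accessions and divided by the column total. No member row matched a row of another accession within 1% in every library. With 1 library per age edgeR's quasi-likelihood test could not be fitted, so ratios carry counting intervals (Wilson, Clopper-Pearson, Woolf) and no p-value. Calls and intervals were tested on simulated data. The simulated counts held counting error only, with no spread between hearts or libraries, so that spread remains untested.

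The members and lists were chosen with earlier results of these data known. Named were the members, any arm or seed relative with a paired accession (none had one) and 5 accessions. These 5 were the nearest in pattern among those averaging 100 CPM or more, and 2 of them are printed. Marker miRNAs of the heart were not checked, for want of paired names. Alternatives used TMM (edgeR 4.0.16), DESeq2 1.42.0 size factors, other totals, a pseudocount of 5 reads, other filters and folds. Analyses ran in R 4.3.3 and Python 3.11.15 with scipy 1.17.1. The counts summed to between 1944237 and 2842526 reads per library.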

Additional observations from a re-analysis of the deposited data

How the results depend on the processing

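No paired analysis was possible because the ages have a single library apiece, and for the same reason no library could be left out. Members with few reads, miR-503-5p at P28 above all, are limited by depth. The log2 ratio of the cluster stayed negative under every alternative run. Of 108 alternative values for single members, 102 were negative and 6 positive, the positive ones being miR-322-5p at P7 against P1 (0.015 to 0.17 over all settings). The cluster's ratio is given for P7 against P1, P28 against P7 and P28 against P1 in turn. It was -1.26, -2.26 and -3.51 with TMM factors, -1.17, -2.495 and -3.66 without the 10 most abundant accessions in the totals, -1.43, -2.61 and -4.04 without miR-542-3p, and -1.44, -3.0 and -4.44 without the miR-322 arms. DESeq2 size factors gave -2.13 and -3.45 for the comparisons with P28. Mature rows alone gave -1.33 at P7 against P1, and leaving out repeated rows gave -2.78 at P28 against P7.

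At P7 against P1, 2 members were at least 2-fold lower without the 10 most abundant accessions in the totals. Of all 291 accessions, 25 (8.6%) were lower with these totals. By library totals, 1 member was at least 4-fold lower, as were 2 of all 291 accessions, that member included. Counts over all accessions, lower and higher, are given where 1 of the pair changed by more than 1.5-fold from the main setting. The fold is at least 2 unless stated. With TMM factors they were 67 and 32 at P28 against P7, and 80 and 70 at P28 against P1. With DESeq2 size factors they were 58 and 40, then 80 and 73. Without the 10 most abundant accessions in the totals they were 89 and 18, then 87 and 60. At 1.5-fold, 69 were lower and 71 higher in the P7 library than in the P1 library. Between P28 and P7 at this fold, 158 were lower and 23 higher at P28. At 4-fold, the comparisons gave 2 and 2, 44 and 4, and 64 and 9. A mean of at least 1 CPM gave 73 and 67, 205 and 39, and 213 and 76. A mean of at least 100 CPM gave 16 and 17, 45 and 2, and 48 and 19. No filter gave 191 and 208, 359 and 113, and 359 and 173. Filters and folds change how many accessions can be counted, and the cause of the other shifts was not tested.

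Taking the higher row of miR-450a-5p in place of the sum set its share of the cluster reads to 2.04%, 2.58% and 4.36% in order of age. The shares of miR-322-3p became 28.0%, 34.3% and 40.8%, that of miR-351-5p 28.8% at P1, and those of miR-542-3p 38.2% at P1 and 44.0% at P7. The arm shares of miR-322 cannot move under this setting, as each arm has 1 row.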
